A study of Homo sapiens with 9 samples.

Results

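NDEL1, ENAH, MAP3K7, KIF21A, CTNND1, PICALM, ECT2 and CLASP1 are 8 genes with an alternative exon known to be regulated by RBFOX proteins, taken here by name from the 62700 annotated genes. Their RBFOX2 binding was read from antibody-barcode eCLIP (ABC), a crosslinking and immunoprecipitation method whose antibodies bear DNA barcodes that become joined to the RNA held by their target, so that several RNA-binding proteins (RBPs) can be read from 1 tube. Merged peaks on the strand of these genes numbered 4095 of 2478204 in the 54 libraries, and 1964 of the 4095 came from the 7 RBFOX2 libraries. RBFOX2 was assayed alone (singleplex) in HEK293 cells in 2 replicates, and within a 10plex of RBFOX2, PRPF8, SF3B4, LIN28B, IGF2BP2, FAM120A, DDX3, EIF3G, ZC3H11A and PUM2 in HEK293 cells in 2 pools and in K562 cells in 3 pools. SLBP alone in K562 cells gave the remaining 2 libraries. HEK293 is a human embryonic kidney line and K562 a human erythroleukemia line. No treatment other than UV crosslinking is given, and no knockdown or knockout of RBFOX2 was included. The singleplex libraries held 192738 to 339302 merged peaks, the 10plex RBFOX2 libraries 158015 to 206869 in HEK293 and 29392 to 57788 in K562.

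RBFOX proteins recognise the RNA motif GCAUG, and UGCAUG more strongly, written GCATG and TGCATG in genome letters. They act on splicing by position: binding in the intron downstream of an alternative exon usually goes with inclusion, binding upstream or on the exon with skipping. NDEL1 and CLASP1 encode microtubule regulators, the first a partner of dynein and the second a protein of growing microtubule ends. KIF21A is a kinesin, and ENAH (Mena) promotes actin assembly and has an exon used in epithelial cells. ECT2 acts in cytokinesis, PICALM assembles clathrin coats, CTNND1 (p120-catenin) stabilises cadherins, and MAP3K7 (TAK1) is a kinase of TGF-beta and cytokine signalling. A cassette exon is here an exon that 1 annotated transcript includes and another skips, and the genes have between 3 (ENAH) and 25 (MAP3K7) of them.

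The labels of the 10plex HEK293 pools disagree, since the title names HEK293T and another field K562. The lines were checked with marker genes. Levels here and below are RPM, the reads of peaks per 1000000 peak reads of the library or pool. Summed over 7 K562 markers (erythroid genes) they came to 2224 to 3104 RPM in the K562 pools and to 0.608 to 4.30 in the pools titled HEK293, and 3 HEK293 markers summed to 0.627 to 4.55 and 141 to 192. Nearly all of the latter was CDH2 (137 to 188 RPM in HEK293, 0 in K562), while PAX2 was similar in both lines and LHX1 was at most 0.496 RPM. The titles were followed.

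For each gene, the RBFOX2 site enriched in most of the 7 RBFOX2 libraries was taken, a site being the union of overlapping enriched peaks and enriched meaning P below 0.001 and a fold above 8 over an external background. These limits were those of the study. Each of the 8 sites held TGCATG on the strand of its gene. The TGCATG nearest to the centre of the strongest peak was taken in each. It lay inside enriched peaks of 7 libraries in MAP3K7, CTNND1 and PICALM and of 6 in NDEL1 and CLASP1. In ECT2 it lay in those of 4, in ENAH of 3 and in KIF21A of 2. The 30 nt around it are shown because they lie in the sites described next. Every GCATG and a T before it are in capitals (GRCh38, written 5′ to 3′ on the strand of the gene).
NDEL1, chr17:8465880-8465909, plus strand: ctgtggctgcgcTGCATGgtgcgtgagggg
ENAH, chr1:225503062-225503091, minus strand: tttttaaaaattTGCATGtttccacaattg
MAP3K7, chr6:90544733-90544762, minus strand: TGCATGccattcTGCATGaaatgttattaa
KIF21A, chr12:39326853-39326882, minus strand: atgtgaatgagcTGCATGctgatgtgtgac
CTNND1, chr11:57762431-57762460, plus strand: tttttgGCATGtTGCATGtgggttgggaaa
PICALM, chr11:86050468-86050497, minus strand: agaatggggaatTGCATGtatctgtttaat
ECT2, chr3:172755583-172755612, plus strand: aaagtaactcatTGCATGtgGCATGctgca
CLASP1, chr2:121444821-121444850, minus strand: caccaaggtcccTGCATGagatgttgcacg

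In NDEL1, enriched RBFOX2 peaks were gathered in 1 stretch that holds an alternative exon. All 85 enriched peaks of the 7 RBFOX2 libraries had their centre in 1 stretch of 5 kb (chr17:8462325-8467324), which is 6.47% of the 77.3-kb gene. This stretch, like those given for the other genes, was placed after the peaks were seen. Of the enriched singleplex peaks, 9 of 43 lay within 500 nt of a cassette exon. Of all merged RBFOX2 peaks of NDEL1, 90 of 135 lay in this stretch. It holds a coding cassette exon of 35 nt (chr17:8463320-8463354) that 1 transcript includes and 4 skip. The site with the highest folds (chr17:8465555-8466239) was called in all 7 libraries and lay 2543 nt downstream of that exon. By the exons of protein-coding transcripts it is a distal intron, 1033 nt from the nearest exon. An exon of another annotated transcript covers it, as the map of the exon shows.

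Reads of the strongest peak at this NDEL1 site were 148 and 228 RPM in the singleplex libraries, 203 and 148 in 10plex HEK293 and 96.6, 118 and 140 in 10plex K562. The HEK293 values lay above all 3 K562 values, by little for the lowest. A second NDEL1 site, 98 nt downstream of the same exon (chr17:8463390-8463513), was also enriched in all 7 libraries, with 58.9 and 65.9, then 53.5 and 38.2, then 27.9, 36.6 and 27.4 RPM. It was picked after its values were seen, as were the sites nearest to an exon in ENAH, KIF21A and PICALM described further on. It holds a TGCATG 93 nt past the exon, and that TGCATG lay inside the enriched peaks of 7 of 7 libraries.
NDEL1 next to the exon, chr17:8463432-8463461, plus strand: ggttttactaacTGCATGgggctgactcag

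Other RBPs of the 10plex also had peaks in this stretch of NDEL1, and the choice of background set how they counted. Against the external background, 37 of the 54 enriched NDEL1 peaks of the other 9 RBPs lay in the 5 kb. In HEK293 this background was shallower for RBFOX2 than for the other RBPs. It held 1.48 and 0.825 reads per RBFOX2 read in the HEK293 pools. For FAM120A, with slightly more peak reads than RBFOX2, it held 26.97 and 20.63. Enriched peaks of RBFOX2 and of other RBPs in HEK293 were thus not called on equal terms over it. The second background was the complement control (CC), the reads of the other 9 barcodes of the same pool. Over the CC, 1 of 11 NDEL1 peaks of the other RBPs lay there, against 31 of 34 of RBFOX2. At the stronger site 16 of the 45 libraries of other RBPs had a peak, the highest with 76.5 RPM (EIF3G, 12 reads in HEK293 pool 2), and none was enriched over the CC. RBFOX2 was enriched there over the CC in 5 of 5 pools, about 13.9-fold and 13.8-fold in HEK293 and 21.1-, 18.8- and 34.7-fold in K562 at the strongest peak with a CC value.

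**Figure D1:**
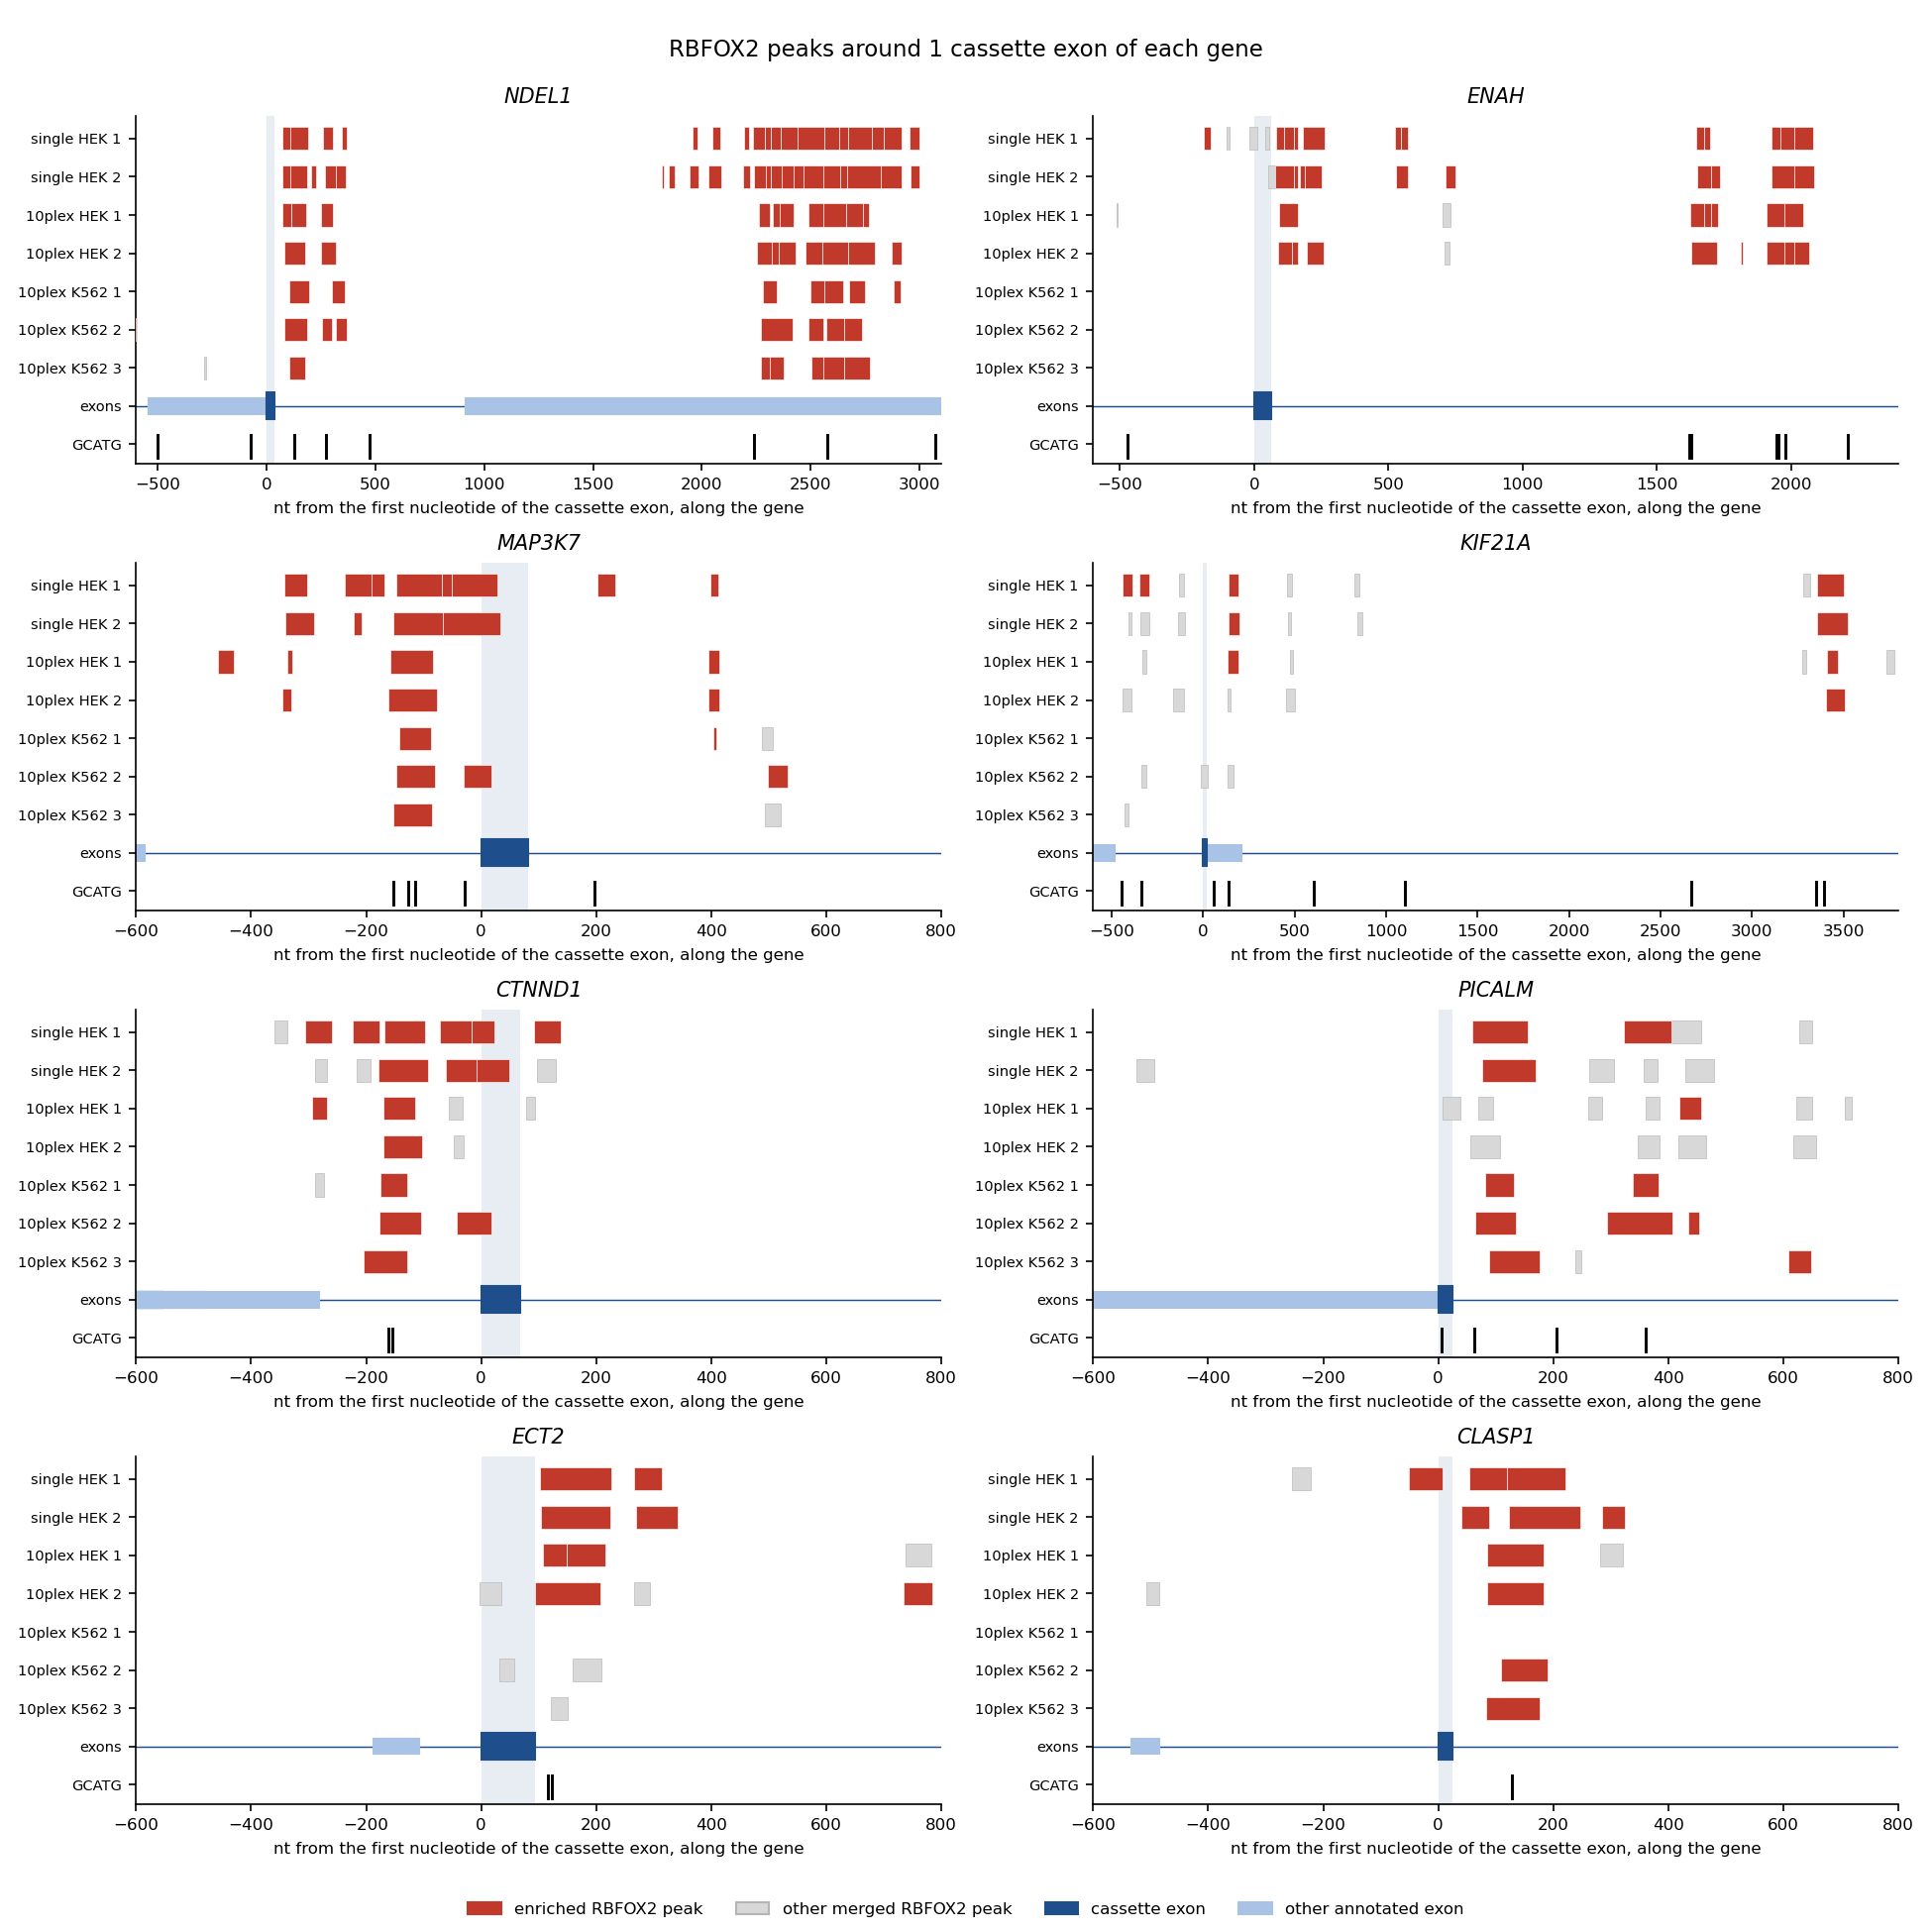
RBFOX2 peaks around 1 cassette exon of each of the 8 genes. The x axis is the distance in nt from the first nucleotide of the exon along the gene, each row is 1 RBFOX2 library, red bars are enriched merged peaks, grey bars other merged peaks, dark blue the cassette exon, light blue other annotated exons and black ticks GCATG on the strand of the gene. NDEL1 peaks recur in all 7 libraries just past the exon and about 2.5 kb further on. The named site of CTNND1 lies before the exon, that of MAP3K7 has its centre before the exon and reaches into it. Those of ECT2 and CLASP1 lie just after the exon. Further enriched peaks lie on the other side in MAP3K7 and CTNND1, and ENAH rows of K562 are empty.

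MAP3K7 and CTNND1 had their most recurrent RBFOX2 site centred upstream of a cassette exon. The MAP3K7 site (chr6:90544600-90544794) was enriched in 7 of 7 libraries. Its centre lay 65 nt upstream of a coding exon of 81 nt (chr6:90544552-90544632), which 9 transcripts include and 13 skip. The end of the site overlaps the start of this exon. The site holds 4 GCATG, 3 of them TGCATG. Its levels were 114 and 105 RPM in singleplex, 78.6 and 124 in 10plex HEK293 and 152, 183 and 134 in 10plex K562. The K562 values were above all 4 HEK293 values. Of the other RBPs, 6 of 9 had a peak there in 10 of the 45 libraries, at most 46.8 RPM and none enriched over the CC. RBFOX2 was enriched over the CC at this site in all 5 pools, about 30.7- and 24.7-fold in HEK293 and 24.7-, 30.5- and 60.01-fold in K562. A stretch of 5 kb around it held 33 of the 38 enriched RBFOX2 peaks of MAP3K7, and 24 of 94 of the other 9 RBPs. As in NDEL1, the HEK293 part of these counts rests on external backgrounds of unlike depth. Over the CC the counts were 9 of 11 for RBFOX2 and 6 of 47 for the other RBPs.

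The CTNND1 site (chr11:57762377-57762507) was likewise enriched in 7 of 7 libraries, 159 nt upstream of a noncoding exon of 67 nt (chr11:57762601-57762667) that 1 transcript includes and 35 skip. Another exon lay closer, 124 nt from the centre of the site. Whether RBFOX2 regulates the 67-nt exon was not tested. The site holds 2 GCATG in a row, 1 of them TGCATG. Its levels were 32.6 and 28.4 RPM in singleplex, 42.3 and 9.15 in 10plex HEK293 and 15.0, 65.6 and 41.1 in 10plex K562. The 10plex libraries differed from each other by more than the cell lines did. The lowest of them, HEK293 pool 2, had 23 reads there, and the shallower K562 pool 1 had 7. EIF3G had a peak here in HEK293 pool 1 with 4 reads, 49.7 RPM, above RBFOX2 in that pool, and this was the only pool in which another RBP had a higher RPM than RBFOX2 at 1 of the 8 sites where RBFOX2 had a peak.

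ECT2 and CLASP1 had theirs directly downstream of a coding cassette exon whose length is a multiple of 3. The ECT2 site (chr3:172755576-172755708) begins right past the last nucleotide of a 93-nt exon (chr3:172755483-172755575), with the TGCATG 23 nt past it. It was enriched in the 4 HEK293 libraries. RPM values were 55.04 and 53.997 in singleplex, 31.0 and 19.5 in 10plex HEK293 and 0, 6.11 and 10.95 in 10plex K562, where the last 2 values rest on 4 reads each and neither peak was enriched. No other RBP had a peak at the site in any pool.

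The CLASP1 site (chr2:121444716-121444922) lay 120 nt downstream of a 24-nt exon (chr2:121444939-121444962), which 1 transcript includes and 7 skip. It held 1 TGCATG, 103 nt past the exon, and was enriched in 6 of 7 libraries. Its levels were 21.97 and 29.3 RPM in singleplex, 23.1 and 13.1 in 10plex HEK293 and 0, 30.5 and 30.1 in 10plex K562. The library without a peak, K562 pool 1, had 28 peak reads in the whole gene, against 119 and 33 in the other K562 pools. No other RBP had a peak at this site either.

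ENAH and KIF21A were bound in HEK293 only, as far as enriched peaks go. ENAH had the most enriched RBFOX2 peaks of the 8 genes in HEK293, 87 over both singleplex and 45 over both 10plex libraries, and no RBFOX2 peak of any kind in K562. Its most recurrent site (chr1:225502969-225503145) had 127 and 144 RPM in singleplex and 58.8 and 43.8 in the 10plex, so that both singleplex values were above both 10plex values. It lay 1934 nt downstream of a coding exon of 63 nt (chr1:225504991-225505053) that 3 transcripts include and 3 skip, and held 3 GCATG. A site with no GCATG, 59 nt downstream of the same exon (chr1:225504890-225504974), was enriched in the same 4 libraries with 41.0 and 46.7, then 33.7 and 31.8 RPM. Of the enriched ENAH peaks 38 of 87 in singleplex and 24 of 45 in the 10plex held GCATG.

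The ENAH calls rested on the external background. Over the CC, 0 and 2 RBFOX2 peaks of ENAH were enriched in the HEK293 pools, and the named site was about 5.88- and 5.08-fold over the CC, under the limit of 8. In the same pools FAM120A had 2675 and 4124 RPM in ENAH, with 27 and 34 peaks enriched over the CC. RBFOX2 had 857 and 805. All FAM120A peaks enriched over the CC in the 8 genes lay in exons of untranslated regions.

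KIF21A had the fewest enriched RBFOX2 peaks of the 8 genes, 13 in all, though not the fewest merged peaks (150, against 100 in ECT2). Its site (chr12:39326740-39326904), 3420 nt downstream of a coding exon of 21 nt (chr12:39330242-39330262), held 1 TGCATG and was enriched in the 4 HEK293 libraries, with 12.7 and 15.6 RPM in singleplex and 8.59 and 9.15 in the 10plex. Over the CC it passed in 1 of the 2 pools, at about 8.23-fold, and missed at 7.39-fold in the other. A site closer to the exon, 146 nt downstream (chr12:39330066-39330126), was enriched in 3 libraries with 7.70 and 7.32, then 7.27 RPM, while the second 10plex HEK293 library had 3 reads there. On the strand of the gene it begins with a TGCATG, which lay inside the enriched peak of 1 library, and it lies in an untranslated exon of another transcript.
KIF21A next to the exon, chr12:39330109-39330138, minus strand: tcaagtggttttTGCATGatcttttttgaa

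PICALM differed from the other genes in its cell line. Its enriched RBFOX2 peaks numbered 60 over the 3 K562 libraries against 6 over both 10plex HEK293 and 13 over both singleplex libraries. This contrast rested on the external background: over the CC, 0, 3 and 7 PICALM peaks were enriched in the K562 pools and 2 and 4 in the HEK293 pools. The most recurrent site (chr11:86050412-86050559), enriched in 7 of 7 libraries, lay deep in an intron, 18165 nt from the nearest annotated cassette exon, and held 2 TGCATG. RPM values were 20.4 and 24.7 in singleplex, 16.5 and 10.3 in 10plex HEK293 and 40.8, 90.1 and 52.0 in 10plex K562, all 3 K562 values above all HEK293 values. A second site, 94 nt downstream of a coding 24-nt exon (chr11:85978070-85978093), was enriched in the 2 singleplex and the 3 K562 libraries at 8.38 and 8.69, then 15.0, 24.4 and 35.6 RPM, and held a GCATG without the preceding T, 40 nt past the exon. Both 10plex HEK293 libraries had a peak there too, at 3.96 and 5.97 RPM. Over the CC it passed in HEK293 pool 2 (about 42.9-fold) and in K562 pool 3 (19.9-fold), and missed in the other 3 pools (4.26-, 5.27- and 5.94-fold). That GCATG lay inside the enriched peak of 1 library.
PICALM next to the exon, chr11:85978016-85978045, minus strand: ttgcaataaattgGCATGctattaaccact

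**Figure D2:**
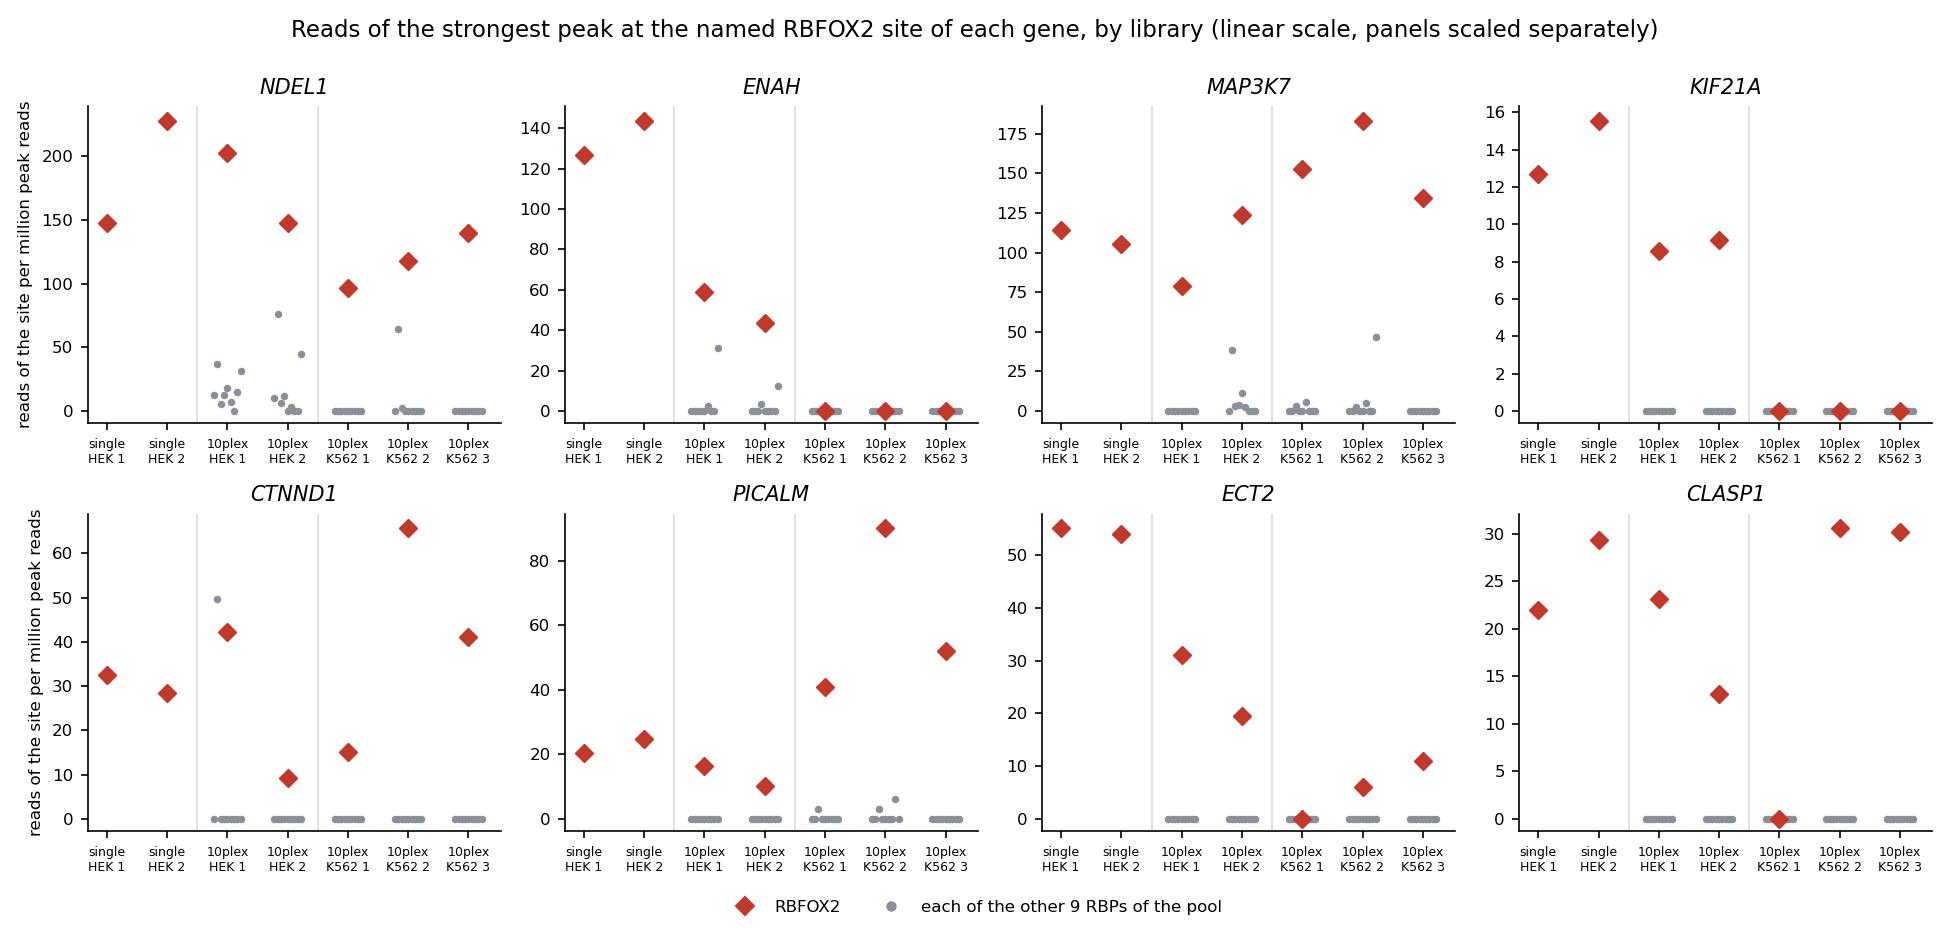
Reads of the strongest peak at the named RBFOX2 site of each gene, in RPM (reads per 1000000 peak reads), on a linear scale that differs between panels. Red diamonds are RBFOX2, grey dots the other 9 RBPs of the same 10plex pool, with a value of 0 where no peak was called. RBFOX2 stands above the other RBPs in every pool in which it had a peak, except HEK293 pool 1 at CTNND1.

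These 8 sites were chosen from RBFOX2 peaks, so that RBFOX2 standing out at them is a description and no test. The level of the whole gene did not use that choice. It was taken as the reads of all merged peaks of a library in the gene as RPM, on the scale log2(RPM + 100), on which 6.64 means no reads. RBFOX2 was set against the other 9 RBPs of its pool by exact permutation of the RBP names within the 5 pools, one-sided, with Benjamini-Hochberg adjustment over 14537 genes. At an adjusted p below 0.05 RBFOX2 was higher in 1481 genes, or 10.2% of those tested, and in 3 of the 8 genes: NDEL1, MAP3K7 and CLASP1. Replicates are separate samples by the labels, which do not say whether they came from separate cultures. The p-values rest on where RBFOX2 stood among the RBPs of each pool, with names exchanged in each pool separately. The same RBPs recur in all 5 pools, so a lasting preference of an RBP for a gene repeats from pool to pool. A low p thus describes a high standing of RBFOX2 that recurred among these RBPs in these pools. Whether it would hold against other RBPs was not tested.

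NDEL1 stood apart most clearly. Its RBFOX2 level was 9.83 and 9.37 in the HEK293 pools and 8.74, 9.26 and 9.17 in the K562 pools, on the log2(RPM + 100) scale, and RBFOX2 had the highest value of the 10 RBPs in all 5 pools. The difference to the mean of the other RBPs was 2.32 log2 units, with p = 1e-05, the smallest that the exact permutation can give, and an adjusted p of 0.000538. Its adjusted p ranged from 0.00042 to 0.0751 over the alternatives, and HEK293 pools alone gave the highest.

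In MAP3K7 the RBFOX2 levels were 8.19 and 8.22 in HEK293 and 8.31, 8.74 and 8.03 in K562, first in 3 of 5 pools and at worst at rank 3 of 10. The difference was 1.08 log2 units, higher than the mean of the other RBPs in 5 of 5 pools, with an exact permutation adjusted p of 0.00217. Over the alternatives the adjusted p of this exact permutation ranged from 0.00042 to 0.338, and the call was lost with K562 pools alone (0.113), HEK293 pools alone (0.0751) and the share of peaks enriched over the CC (0.338). PRPF8, a core spliceosome protein, had the highest mean of the other RBPs in K562, at 8.28.

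CLASP1 had RBFOX2 levels of 8.52 and 8.23 in HEK293 and 7.32, 8.14 and 7.57 in K562. RBFOX2 was first in both HEK293 pools and in none of K562, and the mean difference was 0.78 log2 units with an exact permutation adjusted p of 0.0262. This call rested on single pools. Without HEK293 pool 1, HEK293 pool 2 or K562 pool 2 the adjusted p by the same exact permutation became 0.174, 0.130 and 0.0721, and over all alternatives it ranged from 0.0159 to 0.850.

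In the other 5 genes RBFOX2 was not higher than the rest of the pool by this test. The differences were 0.38 in CTNND1, 0.22 in KIF21A, 0.15 in ENAH, 0.14 in ECT2 and 0.06 in PICALM (log2 units), with exact permutation adjusted p from 0.332 to 0.817. Other RBPs had the highest mean level in K562 in all 5, among them PRPF8 in KIF21A (7.90) and ECT2 (7.92), IGF2BP2 in CTNND1 (8.06) and FAM120A in PICALM (10.26). A gene level sums the peaks of a whole gene, including exons that other RBPs bind.

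**Figure D3:**
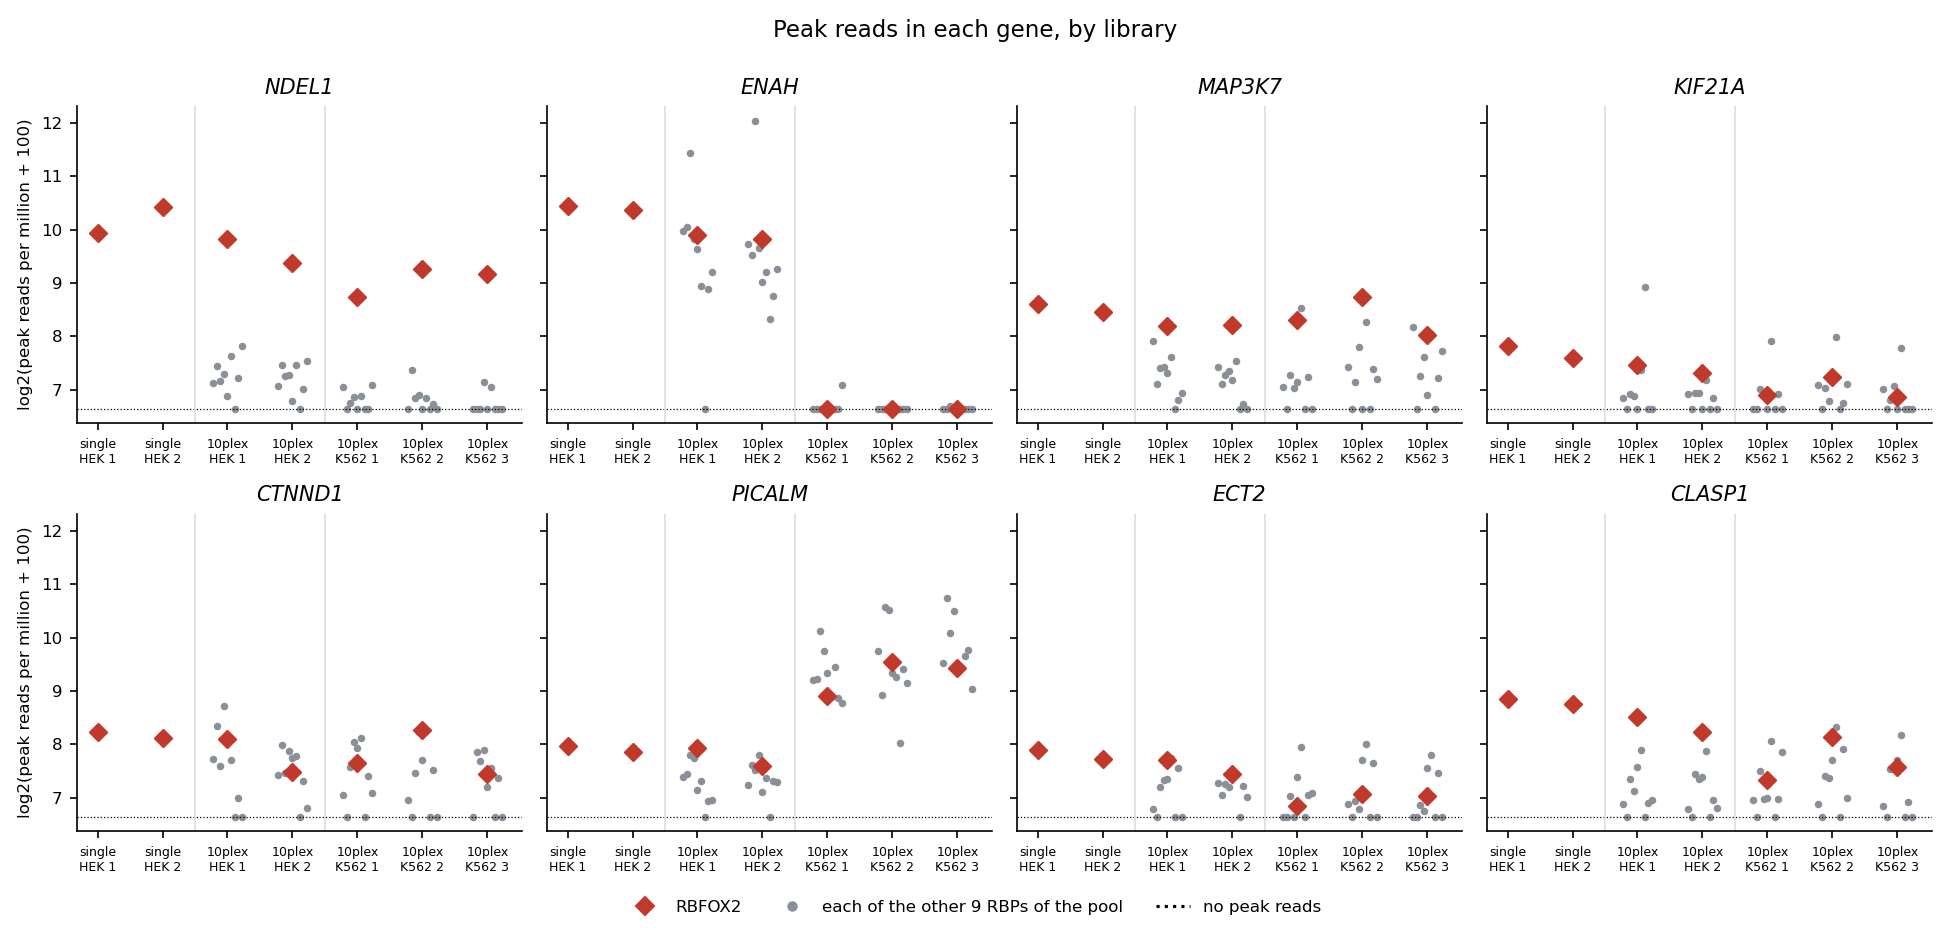
Peak reads in each of the 8 genes as log2(RPM + 100), by library. Red diamonds are RBFOX2, grey dots the other 9 RBPs of the pool, and the dotted line at 6.64 marks no peak reads. RBFOX2 lies above all other RBPs in all 5 pools in NDEL1, ENAH is higher in HEK293 than in K562 for every RBP except PUM2, which has no reads in HEK293 pool 1, and PICALM is higher for all RBPs in K562.

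Between cell lines, RBFOX2 levels in the 10plex were higher in both HEK293 libraries than in all 3 K562 libraries in 5 genes (NDEL1, ENAH, KIF21A, ECT2 and CLASP1) and lower in PICALM. Over the 10225 genes compared, 55.9% were higher in this sense and 16.7% lower, with a median difference of 0.21 log2 units, so the count of 5 is close to that of genes at large. No exact permutation of 2 against 3 libraries can give a two-sided p below 0.1.

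Peak reads of RBFOX2 in ENAH were 1294 and 1219 RPM in singleplex, 857 and 805 in 10plex HEK293 and 0 in all 3 K562 libraries. In PICALM they were 150 and 130, then 145 and 92.7, and in K562 380, 641 and 589. The lists hold called peaks only, so 0 means that no peak was called. On the log2 scale ENAH differed most, by 3.22 log2 units (9.86 ± 0.06 in HEK293, SD, n = 2, against 6.64 in the 3 K562 libraries). PICALM was next with a difference of -1.52 (7.76 ± 0.25, n = 2, against 9.29 ± 0.34, n = 3). In both genes the other RBPs moved the same way: the mean of the other 9 differed by 2.79 log2 units in ENAH and by -2.21 in PICALM. The amount of each RNA in the cells was not measured here, so more binding and more RNA cannot be told apart.

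Peak reads of RBFOX2 in ECT2 were 138 and 111 RPM in singleplex, 110 and 73.6 in 10plex HEK293 and 15.0, 35.1 and 30.1 in K562. In CLASP1 they were 361 and 334, then 267 and 200.1, then 60.1, 182 and 90.4. All K562 values of these genes were below all HEK293 values. On the log2 scale CLASP1 and ECT2 differed by 0.70 and 0.59 log2 units between HEK293 and K562 in RBFOX2, while the mean of the other 9 RBPs differed by -0.12 and 0.10. NDEL1 was 0.54 higher in HEK293 for RBFOX2 and 0.43 for the mean of the other RBPs, and its sign turned (-0.02) when touching peaks were counted by their highest reads alone. The RBFOX2 values were closest in CTNND1, with 174 and 79.2 RPM in 10plex HEK293 and 101, 209 and 73.9 in K562. The log2 difference of RBFOX2 was 0.38 in KIF21A, -0.15 in MAP3K7 and 0.004 in CTNND1, and the libraries of the last 2 overlapped. MAP3K7 no longer overlapped, at -0.32, without K562 pool 3.

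Singleplex and 10plex libraries of the same line were compared next. In HEK293 all genes except PICALM had higher RBFOX2 levels in both singleplex than in both 10plex libraries, which is 7 of 8 against 32.5% of the 11947 genes compared. The differences ran from 0.23 (ECT2) to 0.58 (NDEL1) log2 units, and PICALM differed by 0.14 with overlapping libraries. PICALM no longer overlapped when singleplex replicate 2 was left out (0.20) or 10plex HEK293 replicate 1 (0.32). With 2 libraries each, the exact two-sided permutation p cannot go below 0.33, and the 7 genes reached that value. With touching peaks counted by their highest reads alone, 5 genes remained without overlap, as NDEL1 (0.18) and MAP3K7 (0.02) then overlapped.

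Enriched peaks were also more numerous in singleplex, but these counts, unlike RPM, are not scaled to depth. Peak reads summed to 2185326 to 4414990 in singleplex and 1513947 to 2513156 in 10plex HEK293. Over the whole genome 53279 RBFOX2 peaks were enriched in the singleplex libraries and 33583 in 10plex HEK293. In the 8 genes together, 132 and 96 peaks were enriched in the singleplex libraries, 61 and 51 in 10plex HEK293 and 33, 56 and 29 in 10plex K562. As a share of merged peaks this was 22.8% in the 8 genes against 10% of all RBFOX2 peaks in singleplex, 16.1% against 9.2% in 10plex HEK293 and 44.03% against 36.8% in 10plex K562. Over the CC the shares were 10.8% against 6.01% in HEK293 and 21.97% against 11.2% in K562. The 8 genes thus stood above all RBFOX2 peaks in each group, and as a ratio they did so least in K562 over the external background. In K562, at most 1 read of that background lay under 97.1 to 97.9% of the RBFOX2 peaks. In singleplex this was 78.0 to 85.0% and in 10plex HEK293 71.3 to 74.1%. An RBFOX2 fold over it thus largely follows the reads of the peak, most of all in K562. Of the enriched peaks in the 8 genes, 89.5% ± 0.1 (SD, n = 2) lay in introns in singleplex, 87.6% ± 1.0 (n = 2) in 10plex HEK293 and 68.9% ± 6.5 (n = 3) in K562. In RBFOX2 peaks of all protein-coding genes these shares were 90.1, 86.2 and 48.5%, so the lower share in K562 was not particular to the 8 genes. Within the 8 genes most of the exonic peaks in K562 were in PICALM, with 14 of its 60 peaks in coding and 13 in untranslated exons. Over the CC the intronic share was 96.3% in HEK293 and 95.1% in K562, against 89.8 and 88.7% in all protein-coding genes.

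GCATG was found in 39.6% ± 2.9 (SD, n = 2) of the enriched peaks in singleplex, 49.9% ± 1.3 (n = 2) in 10plex HEK293 and 29.6% ± 2.0 (n = 3) in 10plex K562. At 500 nt from the peaks, windows as long as them held it in 4.2, 3.5 and 4.7%. Enriched peaks of the other 9 RBPs in the same genes held it in 7.7% in HEK293 and 2.7% in K562. The HEK293 value was called over a deeper external background than that of RBFOX2. Over the CC the other RBPs had 5.4% in HEK293 and 4.0% in K562. RBFOX2 peaks of all protein-coding genes held it in 41.4, 39.2 and 18.8%, so the 8 genes were within the spread of all genes in singleplex, and every 10plex library had a higher share in the 8 genes than in all genes. Over the CC the shares were 50.4% ± 7.9 (n = 2) in HEK293 and 43.3% ± 9.8 (n = 3) in K562, against 46.4 and 38.6% in all protein-coding genes, and these no longer differed by more than the spread between libraries. The search used the strand of the gene and the peak itself. Counting 50 nt on both sides raised the shares to 64.1, 67.6 and 49.1%.

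Genes differed in this respect. CTNND1 had GCATG in 10 of 21 singleplex and 8 of 10 10plex HEK293 peaks, and CLASP1 in 14 of 29 and 7 of 13. NDEL1 had it in 7 of 43 singleplex peaks, with 10 adjacent enriched peaks at its long site in each singleplex library. PICALM had GCATG in 8 of 13 singleplex peaks and in 13 of 60 in K562.

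**Figure D4:**
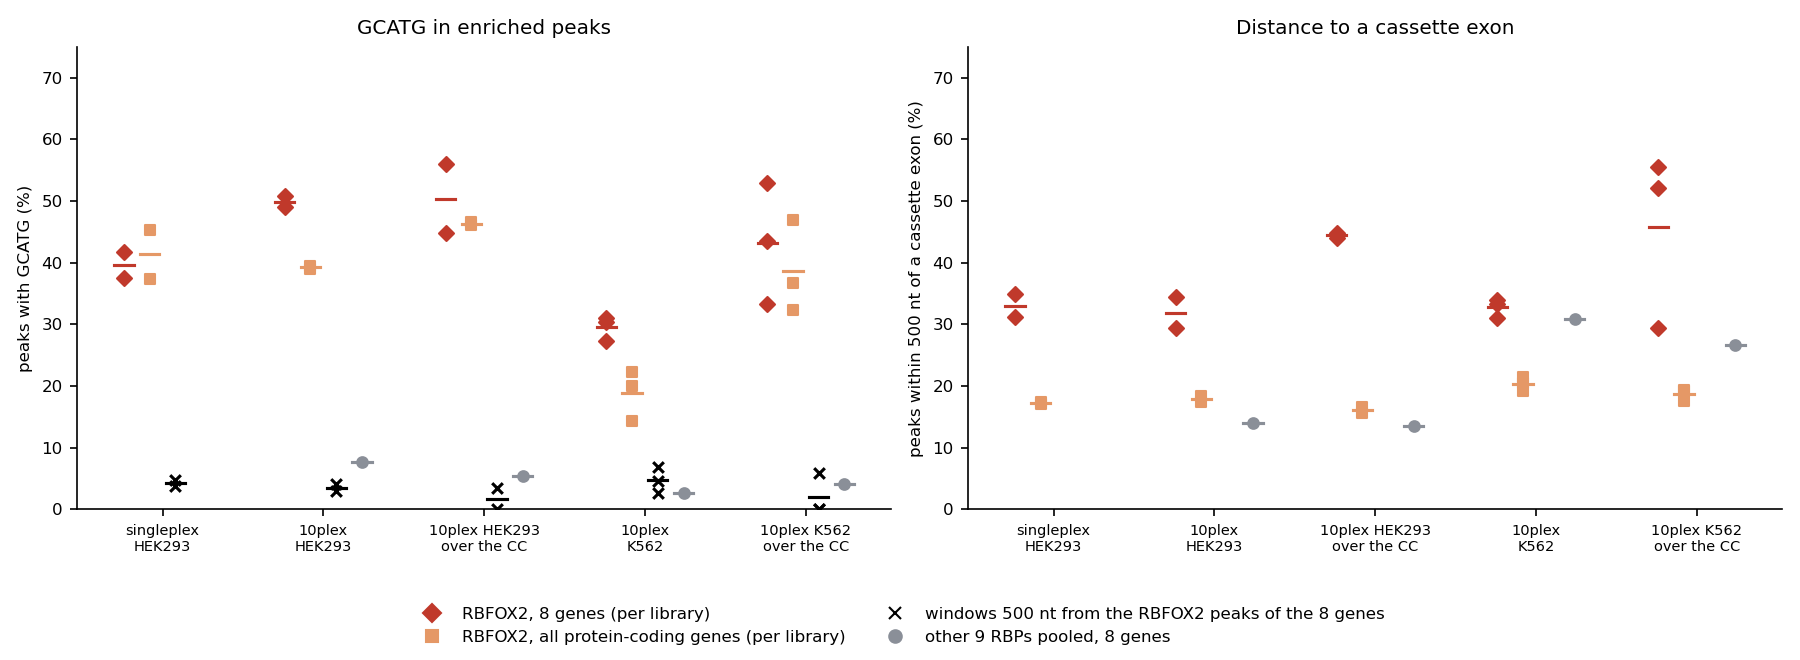
Left, percentage of enriched peaks with GCATG on the strand of the gene; right, percentage with their centre within 500 nt of a cassette exon. Points are libraries and bars their means, for RBFOX2 in the 8 genes (red) and in all protein-coding genes (orange), with windows 500 nt from the peaks (black crosses) and the peaks of the other 9 RBPs in the 8 genes pooled per group (grey). In HEK293 the external background was shallower for RBFOX2 than for the other RBPs. Over the external background, RBFOX2 peaks of the 8 genes hold GCATG in 27.3 to 50.8% and lie near a cassette exon in 29.4 to 34.8%, depending on the library, and over the CC, plotted beside it for the 10plex, the ranges are 33.3 to 56.0% and 29.4 to 55.6%.

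Near a cassette exon (peak centre within 500 nt) lay 33.0% ± 2.5 (SD, n = 2) of the enriched RBFOX2 peaks in singleplex, 31.9% ± 3.5 (n = 2) in 10plex HEK293 and 32.8% ± 1.5 (n = 3) in 10plex K562. This part of the 8 genes makes up 7.62% of their length. In all protein-coding genes the shares were 17.3, 17.9 and 20.4%. Over the external background, the peaks of the other 9 RBPs reached 13.9% in HEK293 but 30.9% in K562, close to RBFOX2. In HEK293 that background was shallower for RBFOX2 than for the other RBPs. SF3B4 and PRPF8, which are parts of the spliceosome, had 34.5% and 38.2% in K562. Higher still there were EIF3G (72.7% of 11 peaks), PUM2 (66.7% of 6) and DDX3 (43.2% of 37). LIN28B (30%), ZC3H11A (28.6%), FAM120A (8.1%) and IGF2BP2 (8%) were below RBFOX2. In HEK293 EIF3G had 33.3% of 21 peaks, and the remaining RBPs were below RBFOX2. Over the CC, RBFOX2 had 44.4% ± 0.6 (n = 2) in HEK293 and 45.7% ± 14.2 (n = 3) in K562. The other 9 RBPs then had 13.5% and 26.6%. In K562 the RBFOX2 libraries spread from 29.4 to 55.6% over the CC, and SF3B4 and PRPF8 had 32.6% and 33.7%. EIF3G had 80% of only 5 peaks there and PUM2 100% of 2, and the remaining RBPs had 16.7% or less. Genes again differed: 20 of 21 singleplex peaks of CTNND1 and 13 of 16 of MAP3K7 were near a cassette exon, against 12 of 87 of ENAH and 3 of 13 of PICALM.

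Most copies of the motif lay outside enriched RBFOX2 peaks. Merged peaks that were not enriched were left out of these counts. The 8 genes hold 1045 GCATG on their strand, or 1.02 per kb, and 85 of them (8.13%) lay in an enriched RBFOX2 peak of any library. Of the 98 within 500 nt of a cassette exon 26 did (26.5%), and of the 947 further away 59 (6.23%). ENAH was the exception with 30 of its 150 distant copies in peaks (20%) and neither of the 2 close ones. KIF21A had 152 copies and 6 in peaks, 5 of these among the 12 near a cassette exon, and CLASP1 had 330 copies with 15 in peaks.

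Sites called in more libraries held the motif more often. The enriched peaks of the 7 libraries formed 170 sites in the 8 genes, of which 5 were called in all 7 libraries and 81 in 1 library. GCATG lay in 24 of the 32 sites called in at least 4 libraries and in 21 of the 81 called in 1. Longer sites are built from more peaks and have more room for a motif, and this was not corrected. The 5 sites common to all libraries were in NDEL1 (2), MAP3K7, CTNND1 and PICALM. Both lines shared 22 sites, 101 were called in HEK293 only and 47 in K562 only, of which 30 in PICALM.

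Agreement was higher within HEK293 than across the lines. On average 81.1% ± 6.9 (SD over 4 pairs of libraries) of 10plex HEK293 peaks overlapped a singleplex peak by at least 1 nt, and 45.3% ± 2.5 of the more numerous singleplex peaks overlapped a 10plex HEK293 peak. The 2 singleplex libraries overlapped by 80.5% and the 2 HEK293 10plex libraries by 71.8%. Of the 10plex K562 peaks, 45.0% ± 5.6 (6 pairs) overlapped a singleplex peak and 49.7% ± 13.4 a peak of another K562 library. With P below 1e-05 and a fold above 16 these became 69.7% ± 9.6 and 59.6% ± 17.9. K562 libraries thus overlapped each other no more clearly than they overlapped singleplex HEK293. Pairs share libraries, so these spreads are not independent errors.

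Another 7 genes with a known RBFOX-dependent exon, EPB41, FN1, FGFR2, ATP5F1C, RBFOX2, MEF2D and SLK, were looked at with the same test of the gene level. RBFOX2 was higher than the other RBPs in 4 of the 7, against the 10.2% of all genes. EPB41, a protein of the membrane skeleton, had a difference of 0.98 log2 units (exact permutation adjusted p = 0.00145), ATP5F1C of ATP synthase 0.61 (0.0295), the transcription factor MEF2D 0.43 (0.00896) and the RBFOX2 transcript itself 0.73 (0.0261). FGFR2, SLK and FN1 did not pass, with adjusted p of 0.138, 0.0684 and 0.940 by the same exact permutation.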

How the data were processed

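Antibody-barcode eCLIP was made from UV-crosslinked HEK293 and K562 cells in 54 libraries, whose RBP was taken from the name of each list since the labels give only the antibodies of a pool. The cells are called HEK293 here, as the labels and the methods of the study name different derivatives. The authors trimmed reads with cutadapt 2.8, removed reads of repeats, aligned the rest to GRCh38 with STAR 2.7.6, removed PCR duplicates by molecular identifiers and called peaks with CLIPper in each library without pooling replicates. The deposited CLIPper lists give a p-value and a display score for each peak. The deposited merged lists give, for each merged peak, -log10 of P and the log2 fold over an external background library (RNA-seq by the methods of the study) or over the CC. Other deposited text fields of the CC lists give a chi-squared statistic, and peaks in repeats were left out of them, except in K562 pool 3.

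Reads of a merged peak were taken from the peak names where given (singleplex RBFOX2 and 10plex K562) and otherwise recovered from the folds as ratios of whole numbers. For depleted peaks of 10plex HEK293 the smallest ratio, a lower bound, was used. CC reads were solved from the chi-squared statistic and are approximate: 66.5 to 85.1% of the solutions in 10plex RBFOX2 lists were whole within the tolerance. Genes and exons came from GENCODE 44 on GRCh38, whereas the authors annotated with GENCODE 35. Strands were those of the lists. Peak reads summed to 2185326 to 4414990 in singleplex RBFOX2 libraries, 1513947 to 2513156 in 10plex HEK293 and 365158 to 655056 in 10plex K562, and to 13351 in the shallowest of the 50 10plex libraries. Gene levels were log2(RPM + 100), where RPM is the reads per 1000000 peak reads of the library, for genes with at least 50 peak reads.

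RBP names were permuted within pools (one-sided, each of the 100000 choices) with Benjamini-Hochberg adjustment, and libraries were permuted between groups (two-sided). Tested on simulated data of 14537 genes, the first test recovered 86% of genes raised 4-fold and 100% of those raised 16-fold. The simulation gave all 10 RBPs the same mean share of a gene and raised no gene of the lowest shares. In the real pools RBPs differ within a gene, as in ENAH in HEK293 with 11.74 for FAM120A and a median of 9.32 over the other 9. The recovery in the real pools is therefore not known. The members and lists were chosen with earlier results of these data known. The genes named are the 8 genes of the report and 7 others with a known RBFOX-dependent exon, and 1 more gene of that list is not reported here. For each of the 8, the named site is the one enriched in most RBFOX2 libraries, ties going to the highest mean log2 fold, with the cassette exon nearest to it. Alternatives were another pseudocount, no filter, single lines, a stricter limit, the CC, other windows and motifs, replicate blocks and leaving out each library. Python 3.11.15, numpy 2.4.6, pandas 2.3.3, scipy 1.17.1, pysam 0.24.0 and samtools 1.23.1 were used. Region names in the deposited lists were not used.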

Additional observations from a re-analysis of the deposited data

Results flagged for a closer look

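Peak reads outside the comparisons were seen in 1 library of SLBP, the histone stem-loop binding protein, assayed alone in K562. Its replicate 1 had 13 reads in 4 merged peaks of PICALM, 1 of them enriched, and 6 reads in 2 merged peaks of CLASP1, none enriched. Both were above the limit of 3 reads that a count of 0 allows. Every listed peak holds at least 3 reads, however, so a gene with 2 peaks always passes that limit. Passing it thus does not tell signal from noise. The limit covers counting error only, and these libraries had 19484 to 84658 peak reads in all.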

How the results depend on the processing

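RBFOX2 stood above the other RBPs in 3 genes in the 5 pools, and in 3 with a pseudocount of 10, with no filter, with touching peaks counted by their highest reads and with no replicate block. Leaving out 1 pool gave 2 to 3 genes. K562 pools alone, and the share of peaks enriched over the CC, each gave 1 gene (NDEL1). HEK293 pools alone gave 0, since 2 pools cannot give a p below 0.01, and 0 of all genes passed there; at an unadjusted p below 0.05 NDEL1, MAP3K7 and CLASP1 reached 0.01 by exact permutation. The members higher in HEK293 than in K562 were 5, 4 with touching peaks counted by their highest reads, 5 under a replicate block and 5 to 5 with 1 library left out; those lower were 1, 2 under the block and 1 to 2. NDEL1 turned to -0.017 with touching peaks counted by their highest reads. Members higher in singleplex were 7, 5 with touching peaks counted so, 8 under the block and 7 to 8 with 1 library left out. Equal replicate numbers do not pair these samples, since both HEK293 10plex titles carry the same number. Mean enriched peaks per library were 114 in singleplex, 56 in 10plex HEK293 and 39.3 in K562, with 96 to 132, 51 to 61 and 31 to 44.5 when 1 library was left out. With P below 1e-05 and a fold above 16 they were 72.5, 33.5 and 17.7, with CLIPper peaks as called 563.5, 396.5 and 107.3, and over the CC 27 in HEK293 and 16.3 in K562. GCATG shares (39.6, 49.9 and 29.6%) became 64.1, 67.6 and 49.1% with 50 nt added and 33.2, 38.3 and 25.6% for TGCATG. With stricter limits they were 52.8% in HEK293 and 41.5% in K562, and over the CC 43.3% in K562. They ranged from 37.5 to 41.7, 49.0 to 50.8 and 28.8 to 30.7% with 1 library left out. Shares near a cassette exon became 23.6, 21.4 and 26.2% within 200 nt, 36.3% in singleplex and 40.1% in K562 within 1000 nt, and 37.2% and 34.4% in the same sets with stricter limits. Exons of protein-coding transcripts gave 30.6% in K562. These shares ranged from 31.3 to 34.8, 29.4 to 34.4 and 32.2 to 33.6% with 1 library left out. The shared part of singleplex peaks was 45.3%, 42.1% when 0.5 of the shorter peak had to overlap and 48.3% with stricter limits, and that of 10plex peaks 81.1 and 89.7%. The cause of these shifts was not tested.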
